A study of Mus musculus with 53 samples.

Results

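The genes described here encode 10 enzymes that build triglycerides, the neutral fats that cells store in lipid droplets, measured in the sciatic nerve of mice with diet-induced prediabetes or type 2 diabetes (T2D). The members were taken by name, as Gpam, Agpat2, Agpat3, Lpin1, Lpin2, Lpin3, Dgat1, Dgat2, Mogat1 and Mogat2. All 10 were found among the 49568 genes listed for each sample. The rule goes by name and uses no measured value, but it was set with earlier results of these data known.

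Most triglyceride is made by the glycerol 3-phosphate route, in which fatty acids are added to a glycerol backbone step by step. Gpam adds the first fatty acid at the outer mitochondrial membrane, Agpat enzymes add the next to give phosphatidic acid, lipins remove the phosphate to give diacylglycerol, and Dgat1 or Dgat2 adds the last one. Mogat enzymes reach diacylglycerol by a shorter route, from monoacylglycerol, which is best known from the intestine. Adipocytes run the pathway at high rates, and the outer sheath of a dissected nerve carries adipocytes beside the myelinating Schwann cells.

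RNA sequencing was done on 53 sciatic nerve samples from male C57BL/6J mice, divided among 8 groups. Control mice on standard diet (SD) were sampled at 16 weeks of age (n = 5) and at 24 weeks (n = 8). The prediabetic model received a high-fat diet (HFD), with 60% of kcal from fat, from 5 weeks of age and was sampled at 16 weeks (n = 7) and 24 weeks (n = 7). The T2D model (HFD-STZ) received the same diet and, at 12 weeks, streptozotocin, a toxin of insulin-producing cells, at 75 mg/kg and again at 50 mg/kg 3 days later, and was sampled at 16 weeks (n = 5) and 24 weeks (n = 8). In dietary reversal (DR), mice of each model were moved at 16 weeks to the control diet for 8 weeks, and were sampled at 24 weeks as HFD-DR (n = 7) and HFD-STZ-DR (n = 6). The control diet has 13% of kcal from fat in the series description, whereas the diet named in the methods has a lower share. The SD mice received no streptozotocin, so the HFD-STZ comparison with SD joins the diet and the toxin. The labels do not say that each sample is a separate mouse, so the tests measure the spread between samples.

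The values are log2 expression values that the authors had already normalized. The study gives only an approximate read number common to all samples, and the files hold no counts, so the counting error of a value could not be given. Gene positions are from build GRCm38 (GENCODE M21). In the text SD before a tissue or sample means standard diet, and after ± it means standard deviation, as SE means standard error. Where 3 values are given in a row for a group of more than 5 samples, they are its lowest, median and highest. The 6 markers of myelinating Schwann cells gave group means of 18.04 to 18.44 on the log2 scale, so the defining markers of peripheral nerve were present throughout. The adipocyte score, the mean log2 value of Adipoq, Plin1, Cidec, Lep, Cfd and Retn, had group means of 10.13 (SD at 16 weeks) to 12.64 (HFD-STZ at 24 weeks). The skeletal muscle score over 6 markers had group means of 8.06 to 12.54, and 5 libraries had a muscle score above 15. The lowest value of any adipocyte marker in any sample was 6.34 (Lep), and of any muscle marker 5.20. In whole nerve, fewer cells of a type and less RNA per cell cannot be told apart.

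The sequence before the transcription start was read from the RefSeq promoter table on build GRCm38.p6. Promoters of 7 of the 10 members matched the table, and Dgat1, Dgat2 and Mogat2 did not. Each sequence shows the 250 bases before the start site of the gene's first listed promoter, 5′ to 3′ on the gene's strand, in lower case. Agpat2 is shown because its level followed the adipocyte score closely, Lpin1 because its level did so less closely, and Gpam because it had no such relation that passed. Capitals mark matches to any of 5 motifs searched on both strands, namely the E-box (CACGTG), the nuclear receptor half-site (AGGTCA), the CCAAT box (CCAAT), the GC box (GGGCGG) and the TATA box (TATAAA).
Agpat2, chr2:26604418-26604667, minus strand: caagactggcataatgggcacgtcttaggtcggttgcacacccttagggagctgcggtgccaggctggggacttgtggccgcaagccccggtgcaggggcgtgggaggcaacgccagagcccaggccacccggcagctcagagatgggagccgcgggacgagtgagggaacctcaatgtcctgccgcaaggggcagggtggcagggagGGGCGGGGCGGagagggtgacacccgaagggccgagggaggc
Gpam, chr19:55127239-55127488, minus strand: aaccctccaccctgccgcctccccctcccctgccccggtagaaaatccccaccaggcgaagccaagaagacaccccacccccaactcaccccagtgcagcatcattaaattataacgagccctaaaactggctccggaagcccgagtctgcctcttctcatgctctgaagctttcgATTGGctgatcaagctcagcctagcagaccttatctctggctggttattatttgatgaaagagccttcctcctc
Lpin1, chr12:16610967-16611216, minus strand: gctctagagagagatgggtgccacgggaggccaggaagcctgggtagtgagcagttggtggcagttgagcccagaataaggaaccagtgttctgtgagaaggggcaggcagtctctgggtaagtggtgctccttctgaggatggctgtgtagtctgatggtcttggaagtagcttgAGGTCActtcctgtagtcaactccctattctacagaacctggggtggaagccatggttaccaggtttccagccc
The Agpat2 window held 2 GC boxes that overlap, beginning 42 and 37 bases before the start, and a GC box occurred in 32.7% of the windows of this length from all 32851 promoters. The Gpam window held 1 CCAAT box, read on the opposite strand, a motif found in 33.8% of all windows. The Lpin1 window held 1 nuclear receptor half-site, found in 14.0% of all windows. None of the 3 windows held an E-box (6.02% of all windows) or a TATA box (12.4%). A further listed Gpam promoter, not shown, held 1 nuclear receptor half-site and 1 GC box. The Mogat1 window, also not shown, held none of the motifs, although Mogat1 followed the adipocyte score about as closely as Agpat2. A match describes the letters in the window and not the binding of a factor.

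The members covered a wide range of levels. Divided by the length of the merged exons of each gene, the mean level over the 53 samples was 10.91 (log2 per kb) for Agpat3, 10.80 for Dgat2 and 10.65 for Agpat2. Lpin1 followed at 9.22, Dgat1 at 9.01 and Gpam at 8.54. Lpin3 (5.93) and Lpin2 (4.72) were far lower, and Mogat1 (3.89) and Mogat2 (3.41) were lowest. The normalization of the values is not named, and if they were already per length the undivided means apply. By those, Lpin1 (12.50) stood above Dgat2 (12.42), Gpam (11.28) above Dgat1 (10.62) and Lpin2 (8.33) above Lpin3 (7.81). All later values are log2 values per gene, without division by length. On that scale Mogat1 reached the low-value limit of 3.32 in 50 of 53 samples and Mogat2 in 48, and the other 8 members reached it in every sample. All 10 passed the filter, a mean at or above that limit over the samples compared, in every comparison.

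**Figure D1:**
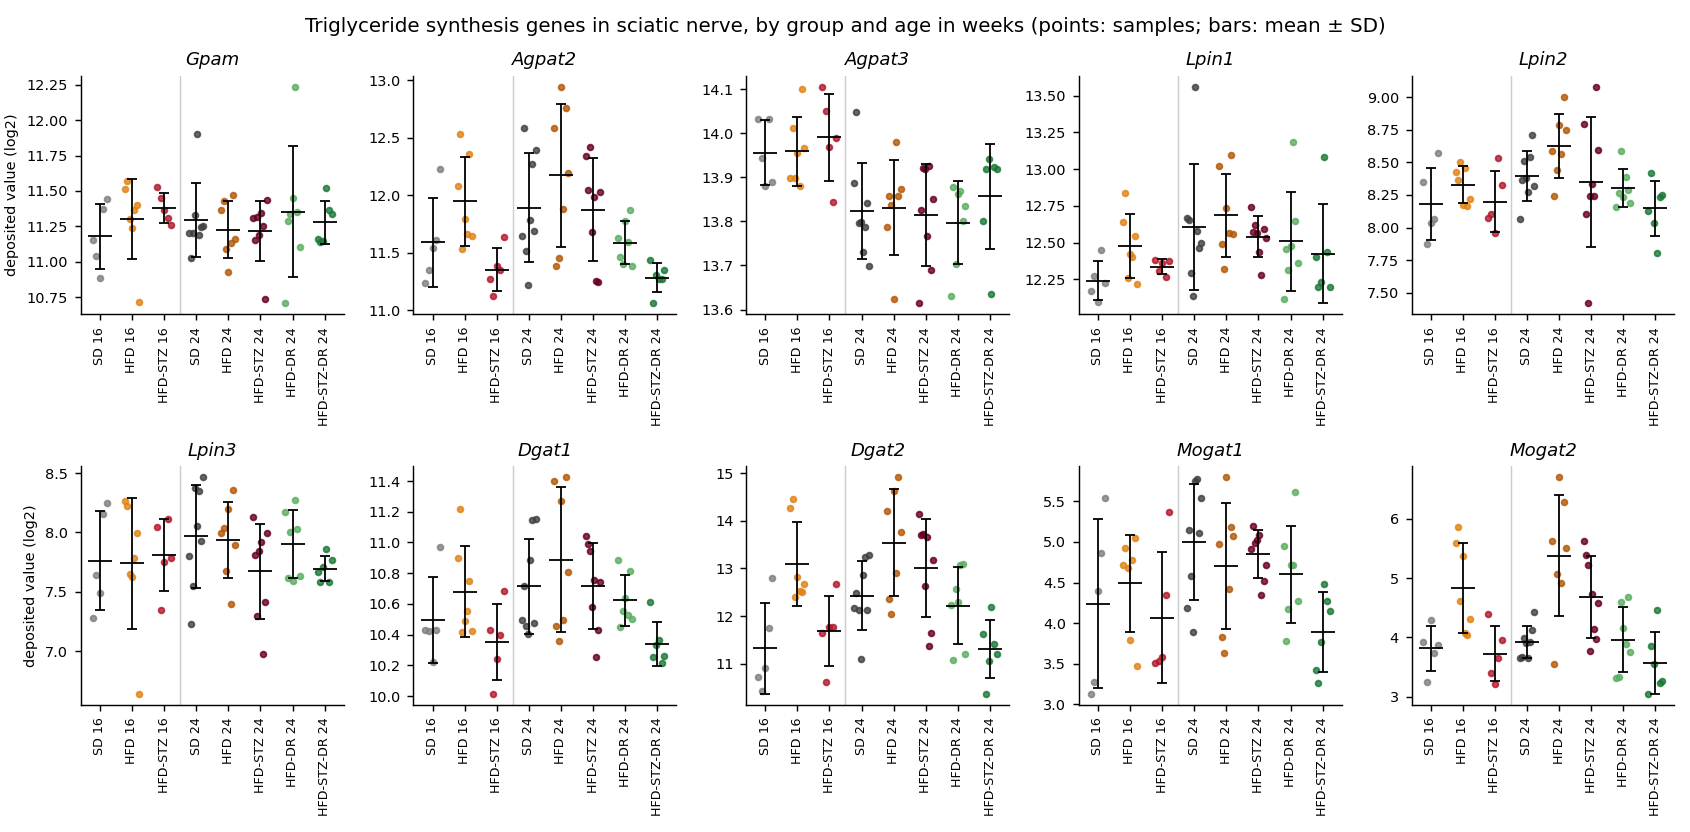
Log2 expression values of the 10 members (y axis, a separate scale for each gene) in the 8 groups (x axis, diet group and age in weeks), with a point for each sample and bars for the group mean ± SD. Dgat2 group means run from 11.31 to 13.54 and Mogat2 group means from 3.57 to 5.38, whereas those of Agpat3 stay within 13.80 to 13.99.

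Gpam (chr19:55067268-55127238), the mitochondrial acyltransferase that opens the route, varied little between groups. Its group means ran from 11.18 ± 0.23 (SD, n = 5) in SD nerve at 16 weeks to 11.38 ± 0.11 (SD, n = 5) in HFD-STZ nerve at 16 weeks. At 24 weeks the HFD samples had a lowest, median and highest value of 10.93, 11.16 and 11.47, and the SD samples 11.03, 11.22 and 11.90. The groups overlapped widely, and the log2 difference was -0.07 (95% confidence interval -0.31 to 0.17). The annotation places an antisense transcript on the opposite strand of Gpam. Agpat3, Lpin2 and Lpin3 also overlap noncoding genes. The library was described as non-stranded, so reads of genes on opposite strands were not told apart.

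The acylglycerol-phosphate acyltransferases Agpat2 (chr2:26593057-26604417) and Agpat3 (chr10:78269178-78352489) make phosphatidic acid, and Agpat2 is the form abundant in adipose tissue, where its loss causes lipodystrophy. Agpat2 was highest in HFD nerve at 24 weeks, with a lowest, median and highest value of 11.39, 12.19 and 12.94. It was lowest in HFD-STZ-DR nerve, at 11.06, 11.29 and 11.44. HFD-DR nerve lay between them, at 11.38, 11.59 and 11.87. The HFD samples therefore spanned most of the range of the series, and both reversal groups were narrow and sat in its lower part.

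In SD nerve at 24 weeks Agpat2 ran from 11.22 through a median of 11.74 to 12.58, so no difference from HFD stood out (log2 difference 0.28, 95% confidence interval -0.26 to 0.82). After reversal it was 1.50-fold lower in HFD-DR than in HFD nerve (log2 fold change -0.59 ± 0.22 SE, 2-sided exact permutation p = 0.0396). In HFD-STZ-DR nerve it was 1.51-fold below the level of HFD-STZ nerve (log2 fold change -0.59 ± 0.17 SE, exact permutation p = 0.0143). Neither difference passed limma's test adjusted over all genes (adjusted p = 0.642 and 0.295). Agpat2 overlaps Egfl7 and Gm20532 on the opposite strand, and its value may hold reads of both.

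Agpat3, a widely expressed acyltransferase, had the steadiest level of the 10. Its group means lay between 13.80 ± 0.09 (SD, n = 7) in HFD-DR and 13.99 ± 0.10 (SD, n = 5) in HFD-STZ nerve at 16 weeks, and its range of group means was 0.19. It differed from its 24-week control by 0.01 in HFD nerve (log2, 95% confidence interval -0.13 to 0.14) and by -0.01 in HFD-STZ nerve (-0.14 to 0.12).

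The lipins are phosphatidic acid phosphatases, and Lpin1, the main form in muscle and fat, also acts as a transcriptional coactivator. Lpin1 (chr12:16535669-16610966) had group means from 12.24 ± 0.13 (SD, n = 5) in SD nerve at 16 weeks to 12.69 ± 0.28 (SD, n = 7) in HFD nerve at 24 weeks. Lpin2 (chr17:71182560-71249817), the form best known from liver, had group means of 8.15 (HFD-STZ-DR) to 8.62 (HFD at 24 weeks). Lpin3 (chr2:160880670-160906002), the least studied form, had group means of 7.67 to 7.97. In SD nerve at 24 weeks the Lpin1 values ran from 12.13 through a median of 12.54 to 13.56, and the highest came from the library with the highest muscle score, 17.43. Lpin2 was the lipin that differed most with reversal. Its lowest, median and highest values were 8.24, 8.59 and 9.0 in HFD nerve at 24 weeks and 8.16, 8.26 and 8.59 in HFD-DR nerve, a 1.25-fold lower level with overlapping groups (log2 fold change -0.32 ± 0.11 SE, exact permutation p = 0.0128, limma adjusted p = 0.633).

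Dgat1 and Dgat2 both catalyse the last step, and they are unrelated in sequence. Dgat2 (chr7:99153658-99182719), the form that supplies lipid droplets, spread more between groups than any other member. Its group means ran from 11.31 ± 0.61 (SD, n = 6) in HFD-STZ-DR nerve to 13.54 ± 1.13 (SD, n = 7) in HFD nerve at 24 weeks. In descending order of group mean it stood at 13.54 in HFD at 24 weeks, 13.09 in HFD at 16 weeks and 13.01 in HFD-STZ at 24 weeks. SD at 24 weeks (12.43) and HFD-DR (12.22) came next, before HFD-STZ at 16 weeks (11.69), SD at 16 weeks (11.32) and HFD-STZ-DR (11.31). No neighbours in this order differed beyond their spread (exact permutation p of 0.209 or more).

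At 16 weeks the SD samples had Dgat2 values of 10.73, 10.43, 10.91, 11.75 and 12.80, and the HFD samples had a lowest, median and highest value of 12.40, 12.67 and 14.47. All 7 HFD samples were above the SD mean, 3 were above every SD sample, and the groups overlapped through a single SD sample. Dgat2 was 3.41-fold higher in HFD nerve (95% confidence interval 1.72 to 6.79, log2 fold change 1.77 ± 0.46 SE, exact permutation p = 0.00758). The difference did not pass limma's test adjusted over all genes (adjusted p = 0.370).

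At 24 weeks the lowest, median and highest Dgat2 values were 11.10, 12.33 and 13.29 in SD nerve and 12.04, 13.76 and 14.91 in HFD nerve. In the HFD group, 4 of 7 samples exceeded every SD sample and the others lay inside the SD range. Dgat2 was 2.16-fold higher in HFD nerve (95% confidence interval 1.15 to 4.08, log2 fold change 1.11 ± 0.43 SE, exact permutation p = 0.0413, limma adjusted p = 0.453). HFD-STZ nerve had values of 11.37, 13.42 and 14.14, and its log2 difference from SD was 0.58 (95% confidence interval -0.28 to 1.43). These comparisons share the SD samples.

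Dietary reversal went with lower Dgat2 values in both models. HFD-DR nerve had a lowest, median and highest value of 11.07, 12.30 and 13.10, and every sample was below the HFD mean. Dgat2 was 2.50-fold lower than in HFD nerve (log2 fold change -1.32 ± 0.46 SE, exact permutation p = 0.0303, limma adjusted p = 0.633). HFD-STZ-DR nerve had values of 10.36, 11.31 and 12.19, and 3 of its 6 samples were below every HFD-STZ sample. There Dgat2 was 3.24-fold lower than in HFD-STZ nerve (log2 fold change -1.70 ± 0.43 SE, exact permutation p = 0.00699, limma adjusted p = 0.184). Without HFD-STZ replicate 6 the log2 fold change was -1.93 and passed (limma adjusted p = 0.0231), and without HFD-STZ replicate 7 it was -1.89 (limma adjusted p = 0.0494). No other single omission passed. Both libraries lay below the mean Dgat2 value of their group. Leaving out either therefore widens the difference by construction, and these passes are no support for it. Both also had the lowest adipocyte scores of their group, 10.93 and 10.96, so leaving out either also widens the difference in that score.

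Dgat1 (chr15:76502015-76511953) spread less. Its group means ran from 10.34 ± 0.14 (SD, n = 6) in HFD-STZ-DR to 10.89 ± 0.47 (SD, n = 7) in HFD nerve at 24 weeks. HFD-STZ-DR samples had a lowest, median and highest value of 10.22, 10.30 and 10.61, against 10.25, 10.75 and 11.04 in HFD-STZ nerve at 24 weeks. Every HFD-STZ-DR sample was below the HFD-STZ mean, and Dgat1 was 1.30-fold lower (log2 fold change -0.38 ± 0.12 SE, exact permutation p = 0.0147, limma adjusted p = 0.393). Within samples, the Dgat2 value minus the Dgat1 value averaged 0.83 ± 0.74 (SD, n = 5) in SD nerve at 16 weeks and 2.42 ± 0.64 (SD, n = 7) in HFD nerve of that age. HFD-STZ nerve of 16 weeks averaged 1.34 ± 0.51 (SD, n = 5). At 24 weeks SD nerve averaged 1.71 ± 0.46 (SD, n = 8), HFD nerve 2.66 ± 0.69 (SD, n = 7) and HFD-STZ nerve 2.29 ± 0.76 (SD, n = 8). The reversal groups averaged 1.60 ± 0.74 (SD, n = 7) in HFD-DR and 0.97 ± 0.56 (SD, n = 6) in HFD-STZ-DR nerve. The pair was chosen after its values were seen, and the difference is given without a test.

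Mogat1 and Mogat2 are monoacylglycerol acyltransferases of the same family as Dgat2. Mogat2 (chr7:99219084-99238619) lies 36.36 kb from Dgat2 with no annotated gene between them, and it overlaps the antisense gene Gm45012 on the opposite strand. Both Mogat genes had the lowest mean levels of the 10. Mogat2 was also the member whose HFD and SD groups were most apart at 24 weeks.

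At 24 weeks Mogat2 had a lowest, median and highest value of 3.65, 3.91 and 4.43 in SD nerve and of 3.56, 5.51 and 6.70 in HFD nerve. In the HFD group 6 of 7 samples were above every SD sample and 1 was below every SD sample. Mogat2 was 2.75-fold higher in HFD nerve (95% confidence interval 1.66 to 4.58, log2 fold change 1.46 ± 0.35 SE, exact permutation p = 0.00218), with a limma adjusted p of 0.125. Without that low sample, HFD replicate 2, the log2 fold change was 1.76 and passed (limma adjusted p = 0.00636). The sample is singled out by its own Mogat2 value, so the difference widens by construction and this pass is no support for it. No other single omission passed there. HFD replicate 2 also had the lowest adipocyte score of its group, 11.13. With all 8 groups in the fit the log2 fold change of 1.46 also passed (limma adjusted p = 0.0226).

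HFD-STZ nerve at 24 weeks had Mogat2 values of 3.78, 4.65 and 5.62, and 5 of its 8 samples were above every SD sample (1.70-fold higher, log2 fold change 0.76 ± 0.25 SE, exact permutation p = 0.0113, limma adjusted p = 0.779). At 16 weeks the SD samples were at 3.93, 3.24, 4.29, 3.74 and 3.87, and the HFD samples at a lowest, median and highest value of 4.04, 4.62 and 5.86. HFD nerve of that age was 2.03-fold higher (95% confidence interval 1.21 to 3.40, exact permutation p = 0.0240, limma adjusted p = 0.478). HFD-STZ samples of 16 weeks, at 4.40, 3.40, 3.22, 3.65 and 3.96, lay on both sides of the SD samples, with 3 of 5 inside the SD range, 1 above it and 1 below it.

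After reversal Mogat2 was at 3.32, 3.88 and 4.68 in HFD-DR nerve, with every sample below the HFD mean (2.67-fold lower, log2 fold change -1.42 ± 0.40 SE, exact permutation p = 0.00874, limma adjusted p = 0.499). In HFD-STZ-DR nerve it was at 3.04, 3.40 and 4.45, with 4 of 6 samples below every HFD-STZ sample (2.16-fold lower, log2 fold change -1.11 ± 0.32 SE, exact permutation p = 0.00833, limma adjusted p = 0.274). The HFD-DR samples lay around the SD mean of 3.92, with a log2 difference of 0.04 (95% confidence interval -0.42 to 0.50).

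Mogat1 (chr1:78510991-78538173) had a different order of groups. It was highest in SD nerve at 24 weeks, with a lowest, median and highest value of 3.89, 5.13 and 5.78, and was at 3.64, 4.98 and 5.79 in HFD nerve. The log2 difference was -0.29 (95% confidence interval -1.05 to 0.46). It was lowest in HFD-STZ-DR nerve, at 3.26, 3.96 and 4.48, against 4.34, 4.95 and 5.20 in HFD-STZ nerve, and 5 of 6 HFD-STZ-DR samples were below every HFD-STZ sample. Mogat1 was 1.94-fold lower there (log2 fold change -0.96 ± 0.21 SE, exact permutation p = 0.000999), with a limma adjusted p of 0.128. Without HFD-STZ replicate 6 the log2 fold change was -1.03 and passed (limma adjusted p = 0.0373). No other single omission passed, and that library had the lowest adipocyte score of its group, 10.93. It also lay below the mean Mogat1 value of its group, so the difference widens by construction and this pass is no support for it. Mogat1 overlaps BC035947 on the opposite strand and shares 8.15% of its 100-base stretches with that gene, so its reads may not all be its own.

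Comparison by comparison, no member passed limma's test adjusted over all genes tested in any of the 14 group comparisons. The counts below are therefore at an unadjusted p under 0.05, beside the share of all genes tested that reached the same mark in the same direction. Over all genes, the share that passed the adjusted test was 0% in 8 of the 14 comparisons and is given below for the others.

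In HFD against SD nerve at 16 weeks, 3 of 10 members were higher at that mark (Dgat2, Mogat2 and Lpin1) and 0 lower, where 4.98% of 17962 genes were higher and 3.57% lower. The members' median log2 fold change was 0.21, and that of all genes was 0.01. Over all genes, 0.00557% passed the adjusted test. At 24 weeks 2 of 10 members were higher (Dgat2 and Mogat2) and 0 lower, where 5.54% of 18191 genes were higher and 3.51% lower, and 0.121% passed the adjusted test. The median was 0.13 for members and 0.01 for all genes.

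In HFD-STZ against SD nerve at 16 weeks, 0 members reached the mark, where 3.99% of genes were higher and 4.42% lower. At 24 weeks 1 of 10 was higher (Mogat2) and 0 lower, where 3.3% of 17846 genes were higher and 2.69% lower, and 0.0336% passed the adjusted test. The median was -0.03 for members and 0.00 for all genes. Set directly against HFD nerve at 16 weeks, HFD-STZ nerve had 4 members lower (Dgat2, Mogat2, Agpat2 and Dgat1) and 0 higher, where 2.9% of genes were lower and 1.99% higher. Dgat2 was 2.64-fold lower there (log2 fold change -1.40 ± 0.41 SE, exact permutation p = 0.0126, limma adjusted p = 0.987), and its log2 fold change was -0.69 ± 0.24 SE with the adipocyte score of each sample as a covariate. At 24 weeks 0 members separated the 2 models at that mark, where 4.17% of genes were lower and 1.42% higher in HFD-STZ nerve.

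In HFD-DR against HFD nerve, 4 of 10 members were lower (Mogat2, Dgat2, Agpat2 and Lpin2) and 0 higher, where 4.57% of 18475 genes were lower and 2.15% higher, and 0.0108% passed the adjusted test. The median log2 fold change was -0.22 for members and 0.00 for all genes. In HFD-STZ-DR against HFD-STZ nerve, 5 of 10 were lower (Dgat2, Mogat2, Mogat1, Agpat2 and Dgat1) and 0 higher, where 4.51% of 17862 genes were lower and 1.97% higher, and 0.084% passed the adjusted test. The median was -0.29 for members and 0.01 for all genes. Reversal from the 2 models shares no samples, and Dgat2, Mogat2 and Agpat2 were lower at that mark in both. The share of all genes lower in both was not computed, so this overlap has no background to be read against. These members also varied together within groups (r = 0.827 for Dgat2 and Agpat2, 0.657 for Dgat2 and Mogat2, 0.554 for Mogat2 and Agpat2), so they are not separate observations.

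**Figure D2:**
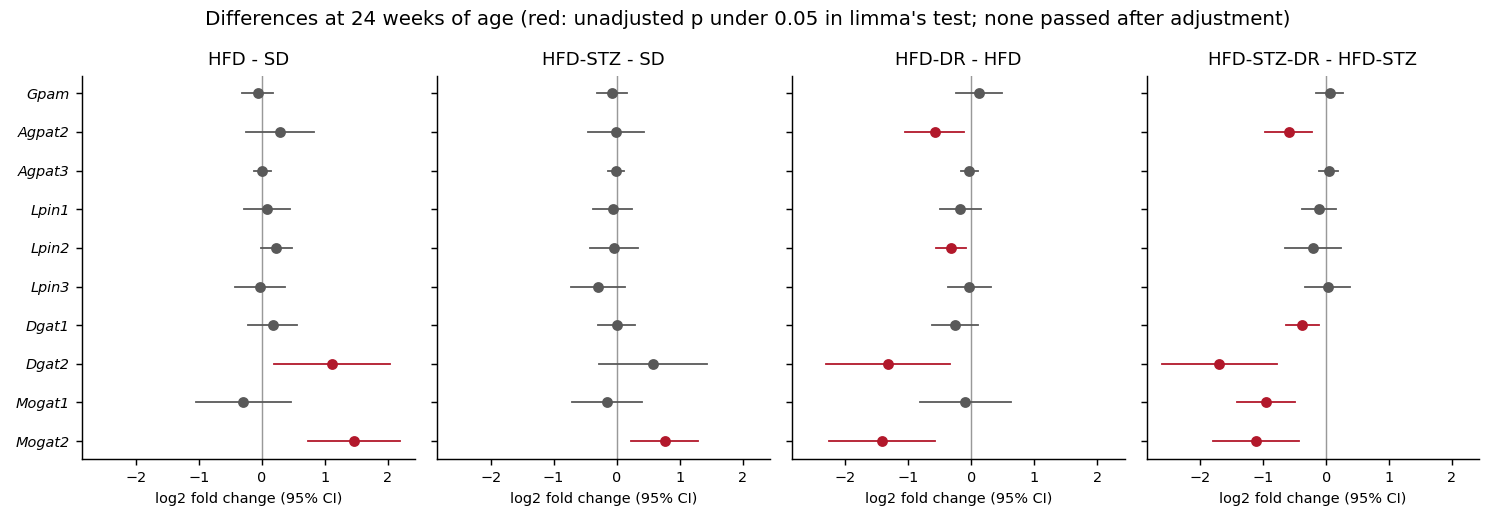
Log2 fold changes of the 10 members (x axis, point with 95% confidence interval) in 4 comparisons at 24 weeks of age, with red for an unadjusted p under 0.05. Dgat2 and Mogat2 lie right of 0 in HFD nerve (1.11 and 1.46) and left of 0 in both reversal comparisons, whereas Gpam and Agpat3 stay close to 0 throughout.

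Set against SD nerve of 24 weeks, HFD-DR nerve had 0 members at the mark in either direction, where 3.71% of genes were higher and 1.43% lower. HFD-STZ-DR nerve had 5 of 10 lower (Dgat2, Mogat1, Agpat2, Dgat1 and Lpin2) and 0 higher, where 4.67% of genes were lower and 4.49% higher. There Dgat2 was 2.17-fold lower (log2 fold change -1.12 ± 0.33 SE, exact permutation p = 0.0117, limma adjusted p = 0.361) and Mogat1 2.15-fold lower (log2 fold change -1.10 ± 0.32 SE, exact permutation p = 0.00932, limma adjusted p = 0.361). HFD-STZ-DR nerve was also below HFD-DR nerve in 4 of 10 members (Agpat2, Dgat1, Dgat2 and Mogat1), where 2.1% of genes were lower and 1.48% higher. The comparisons of HFD-STZ-DR nerve share its 6 samples. The adipocyte score was also lower in HFD-STZ-DR nerve, at 10.48 against 11.98 in SD nerve and 11.48 in HFD-DR nerve. With that score of each sample as a covariate, the log2 fold changes against SD nerve were -0.27 ± 0.22 SE for Dgat2, -0.54 ± 0.34 SE for Mogat1, -0.29 ± 0.20 SE for Agpat2 and -0.13 ± 0.13 SE for Dgat1.

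With age, 1 member was higher at the mark in SD nerve of 24 than of 16 weeks, namely Dgat2 (log2 fold change 1.11 ± 0.41 SE, exact permutation p = 0.0412), where 5.43% of genes were higher and 5.04% lower. In HFD nerve Lpin2 was higher and Agpat3 lower, where 2.68% of genes were higher and 3.22% lower, and 0.0654% passed the adjusted test. In HFD-STZ nerve 6 of 10 were higher (Agpat2, Dgat1, Dgat2, Lpin1, Mogat1 and Mogat2) and 1, Agpat3, lower, where 5.85% of genes were higher and 6.69% lower. The log2 difference of Agpat3 with age was -0.13 in SD, -0.13 in HFD and -0.18 in HFD-STZ nerve, and over the same ages the mean Schwann score went from 18.44 to 18.12, from 18.31 to 18.04 and from 18.36 to 18.07. Its part in the Agpat3 difference was not tested. The mean adipocyte score went from 10.13 to 11.98 in SD and from 11.20 to 12.64 in HFD-STZ nerve. With it as a covariate, the log2 fold change of Dgat2 with age was 0.09 ± 0.25 SE in SD nerve. In HFD-STZ nerve it was 0.28 ± 0.20 SE rather than 1.31, that of Agpat2 was 0.15 ± 0.13 SE rather than 0.52, and that of Mogat2 was 0.55 ± 0.34 SE rather than 0.95.

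The differences between effects were tested as interactions, and 0 members and 0% of all genes passed the adjusted test. The effect of HFD on Dgat2 was 0.66 smaller on the log2 scale at 24 than at 16 weeks, with a 95% confidence interval of -2.04 to 0.73, and 0 members reached an unadjusted p under 0.05 in either direction, where 1.67% of genes did. For HFD-STZ, the effect on Mogat2 was 0.85 larger at 24 weeks (95% confidence interval 0.05 to 1.65, limma adjusted p = 0.756), and 1 of 10 members reached an unadjusted p under 0.05, where 2.09% of genes did so in that direction and 2.59% in the other. The effect of reversal on Mogat1 was 0.86 lower in the T2D than in the prediabetic model (95% confidence interval -1.71 to -0.01), again 1 of 10, where 0.699% of genes did so in that direction and 1.01% in the other. The effect of reversal on Dgat2 differed between the models by -0.37 (95% confidence interval -1.74 to 0.99).

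The adipocyte score also varied between groups, in an order close to that of Dgat2 but not the same. The score was highest in HFD-STZ nerve at 24 weeks and lowest in SD nerve at 16 weeks. Dgat2 was highest in HFD nerve at 24 weeks and lowest in HFD-STZ-DR nerve. At 16 weeks SD nerve averaged 10.13 ± 1.78 (SD, n = 5), HFD nerve 12.32 ± 0.88 (SD, n = 7) and HFD-STZ nerve 11.20 ± 1.40 (SD, n = 5). At 24 weeks the averages were 11.98 ± 0.95 (SD, n = 8) for SD, 12.54 ± 1.16 (SD, n = 7) for HFD and 12.64 ± 1.10 (SD, n = 8) for HFD-STZ nerve. Reversal groups were lower, at 11.48 ± 1.20 (SD, n = 7) in HFD-DR and 10.48 ± 1.13 (SD, n = 6) in HFD-STZ-DR. The markers did not all move alike. Lep, which encodes the hormone leptin, was higher in HFD nerve at 24 weeks (log2 fold change 3.30 ± 0.64 SE, limma adjusted p = 0.0596), and Cfd, which encodes adipsin, was at -1.87 ± 0.46 SE (limma adjusted p = 0.139). Over all 6 markers the median log2 fold change was 2.29 in HFD against SD nerve at 16 weeks and 0.59 at 24 weeks, -1.08 in HFD-DR against HFD and -2.11 in HFD-STZ-DR against HFD-STZ nerve. In the first and last of these, Adipoq, which encodes adiponectin, was at 2.52 ± 0.72 SE and -2.30 ± 0.52 SE (limma adjusted p = 0.430 and 0.129), and 0 markers passed the adjusted test in any of them.

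Between samples of the same group, Dgat2 followed this score most closely. After subtraction of the group means, its Pearson r over the 53 samples was 0.897 and its Spearman rho 0.913. A permutation test within groups gave an adjusted p of 5e-05 for both over the 20 relations computed, from the smallest p that the 100000 shuffles can give, 1e-05. Without the 2 samples farthest from the median score r was 0.910. Within the single groups r ran from 0.765 to 0.988.

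Mogat1 (r = 0.731, rho = 0.713), Dgat1 (r = 0.717, rho = 0.761) and Agpat2 (r = 0.702, rho = 0.745) also followed the score, each with a permutation adjusted p of 5e-05. Lpin3 (r = 0.524, rho = 0.602), Mogat2 (r = 0.492, rho = 0.513) and Lpin1 (r = 0.422, rho = 0.524) did so less closely (permutation adjusted p = 0.00032, 0.000633 and 0.00434 for r). Agpat3 went the opposite way in all 8 groups (r = -0.346, rho = -0.369, permutation adjusted p = 0.0316 for r). For Gpam (r = 0.240, rho = 0.277) and Lpin2 (r = 0.0651, rho = 0.191) no relation passed (permutation adjusted p = 0.171 and 0.838 for r). Without the 2 samples farthest from the median score, r was 0.71 for Mogat1, 0.729 for Dgat1, 0.707 for Agpat2, 0.473 for Lpin3, 0.522 for Mogat2, 0.443 for Lpin1 and -0.319 for Agpat3. With the runs of consecutive library numbers removed as well as the groups, Agpat3 no longer passed (r = -0.274, permutation adjusted p = 0.148), and Dgat2 had an r of 0.906.

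**Figure D3:**
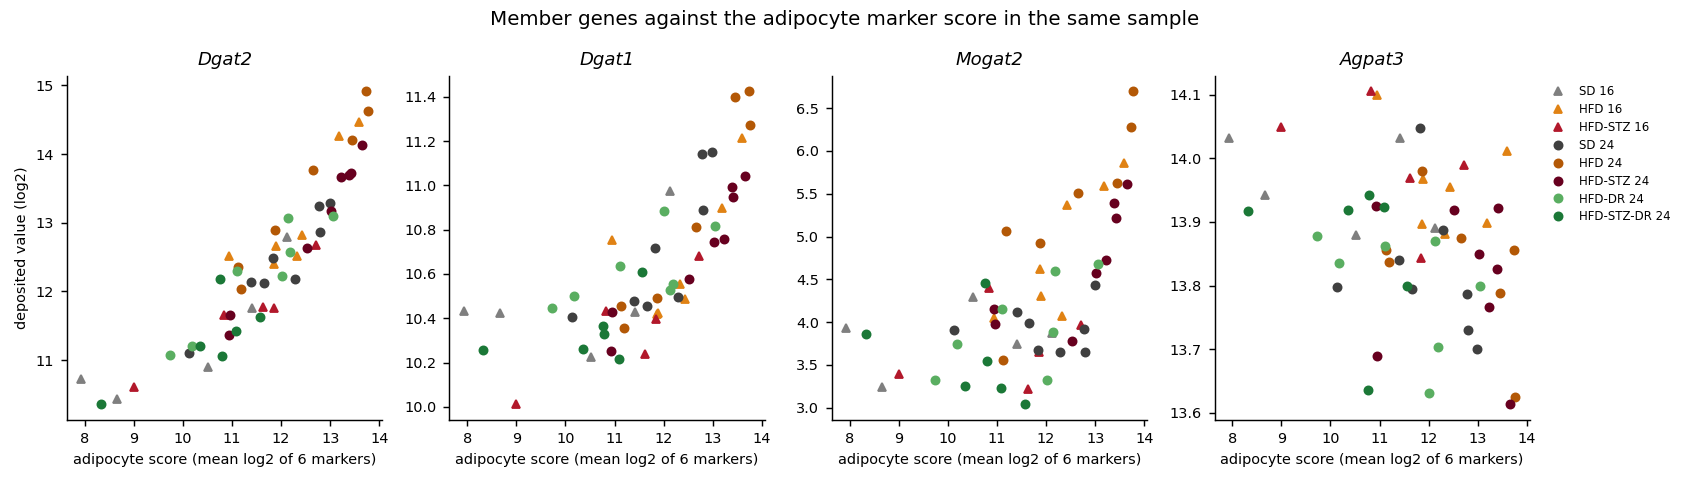
Log2 values of Dgat2, Dgat1, Mogat2 and Agpat3 (y axis) against the adipocyte score of the same sample (x axis, mean log2 of 6 markers), with a point for each of the 53 samples, triangles for 16 weeks and circles for 24 weeks. Dgat2 goes up with the score (r = 0.897 after subtraction of group means) and Agpat3 goes slightly down (r = -0.346), and the highest Mogat2 value, 6.70, is in an HFD sample.

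The muscle score went with other members. Lpin1 was higher (r = 0.47, rho = 0.302, permutation adjusted p = 0.007 for r and 0.0857 for rho) and Lpin2 lower (r = -0.406, rho = -0.381, permutation adjusted p = 0.007 and 0.0208) where muscle markers were high. Gpam had an r of 0.313 and a rho of 0.253 (permutation adjusted p = 0.0456 and 0.140). Its r was 0.198 with the library runs removed (permutation adjusted p = 0.321). Without the 2 samples farthest from the median muscle score, r was 0.414 for Lpin1, -0.336 for Lpin2 and 0.340 for Gpam. Without the 5 libraries with a muscle score above 15, the log2 fold change of Lpin1 in HFD-STZ-DR against HFD-STZ nerve was -0.25 rather than -0.12, and it did not pass (limma adjusted p = 0.263).

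The comparisons were also fitted with the adipocyte score of each sample as a covariate. The log2 fold change of Dgat2 in HFD against SD nerve at 16 weeks was then 0.52 ± 0.35 SE rather than 1.77. At 24 weeks it was 0.64 ± 0.13 SE rather than 1.11, and it passed (limma adjusted p = 0.0281). In HFD-STZ against HFD nerve at 24 weeks Dgat2 was at -0.63 ± 0.09 SE rather than -0.54, and it also passed (limma adjusted p = 0.0393). Other members were lower in that fit too and did not pass. Agpat2 was at -0.34 ± 0.07 SE, Mogat2 at -0.76 ± 0.25 SE and Dgat1 at -0.20 ± 0.08 SE (limma adjusted p = 0.157, 0.326 and 0.377). Mogat1 was above 0, at 0.10 ± 0.18 SE. With reversal Dgat2 was at -0.48 ± 0.16 SE rather than -1.32 in the prediabetic model, and at -0.18 ± 0.29 SE rather than -1.70 in the T2D model.

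At 16 weeks Mogat2 was at 0.49 ± 0.42 SE in HFD against SD nerve, where it was 2.03-fold higher without the covariate. At 24 weeks it was at 1.21 ± 0.29 SE rather than 1.46 in HFD against SD nerve at 24 weeks (limma adjusted p = 0.0706), at -0.86 ± 0.31 SE rather than -1.42 in HFD-DR against HFD nerve, and at -0.68 ± 0.45 SE rather than -1.11 in HFD-STZ-DR against HFD-STZ nerve. Agpat2 and Dgat1, both lower after reversal from HFD-STZ, were at -0.02 ± 0.15 SE and -0.02 ± 0.12 SE with the covariate. Mogat1 was at -0.50 ± 0.27 SE rather than -0.96 in that comparison. The score holds genes whose values differed between diet groups, Lep among them, although no marker passed the adjusted test. A fit with the score may thus also remove a difference of the diet itself. Its markers also moved in opposite directions where Dgat2 passed. Lep was at 3.30 and Cfd at -1.87 in HFD against SD nerve at 24 weeks. In HFD-STZ against HFD nerve of that age Lep was at -0.79 ± 0.66 SE and Cfd at 1.20 ± 0.49 SE. A fit with the score can therefore also leave or add a difference, and the part of adipocyte number in these results cannot be told apart.

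**Figure D4:**
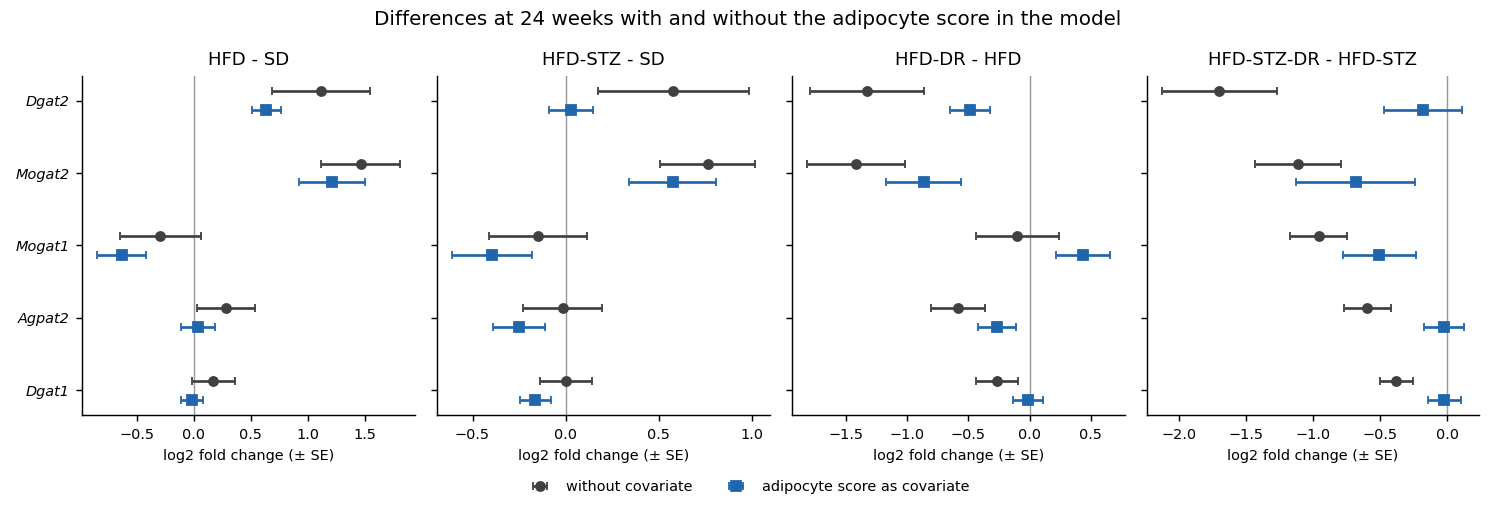
Log2 fold changes (x axis, ± SE) of 5 members in 4 comparisons at 24 weeks, without a covariate (grey circles) and with the adipocyte score as a covariate (blue squares). In HFD-STZ-DR against HFD-STZ nerve Dgat2 is at -1.70 without and -0.18 with the covariate, whereas in HFD against SD nerve Mogat2 is at 1.46 and 1.21.

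The pathway holds other enzymes beside the members, and the share of all genes at an unadjusted p under 0.05 in each comparison is the one given above. Of 13 further acyltransferases and phosphatases, 10 passed the filter and 0 passed the adjusted test in the 4 disease and reversal comparisons at 24 weeks. At an unadjusted p under 0.05, Gpat2, a mitochondrial acyltransferase, was higher in HFD nerve (log2 fold change 0.55 ± 0.17 SE, limma adjusted p = 0.301). Agpat9, the older symbol of the endoplasmic reticulum acyltransferase Gpat3, was lower in HFD-STZ-DR nerve (log2 fold change -1.19 ± 0.35 SE, limma adjusted p = 0.291). The list's median log2 fold change was -0.01 in HFD against SD, 0.03 in HFD-STZ against SD, 0.01 in HFD-DR against HFD and -0.05 in HFD-STZ-DR against HFD-STZ nerve. At 16 weeks Agpat4 and Agpat5, further acylglycerol-phosphate acyltransferases, were at -0.20 ± 0.08 SE and -0.20 ± 0.07 SE in HFD against SD nerve (limma adjusted p = 0.555 and 0.476). In HFD-STZ against SD nerve of that age they were at -0.23 ± 0.06 SE and -0.18 ± 0.07 SE, and Plpp1, a lipid phosphate phosphatase, was at -0.22 ± 0.10 SE (limma adjusted p = 0.529, 0.586 and 0.586).

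Among 8 genes that supply glycerol 3-phosphate and acyl-CoA, all passed the filter and 0 passed the adjusted test in these comparisons. In HFD-STZ-DR against HFD-STZ nerve 3 were lower at an unadjusted p under 0.05, where 4.51% of all genes were, namely Pck1 (log2 fold change -1.78 ± 0.54 SE, limma adjusted p = 0.334), which feeds glyceroneogenesis, and the acyl-CoA synthetases Acsl1 (-0.65 ± 0.30 SE) and Acsl5 (-0.44 ± 0.14 SE). Glycerol kinase, Gk, was at 0.28 ± 0.11 SE in HFD-STZ against SD nerve (limma adjusted p = 0.813). Gpd1, which makes glycerol 3-phosphate, was at -0.34 ± 0.13 SE in HFD-STZ against SD nerve at 16 weeks (limma adjusted p = 0.586). The list's median log2 fold change was -0.22 in HFD-STZ-DR against HFD-STZ nerve and -0.07 in HFD against SD nerve of 24 weeks.

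Of 8 transcription regulators of lipid synthesis, 0 passed the adjusted test in the comparisons of each model with SD nerve or of each reversal group with its model. Pparg, the main regulator of adipocyte differentiation, was at 1.57 ± 0.42 SE in HFD against SD nerve at 16 weeks, at -1.05 ± 0.46 SE in HFD-DR against HFD and at -1.36 ± 0.34 SE in HFD-STZ-DR against HFD-STZ nerve (limma adjusted p = 0.391, 0.725 and 0.179). Cebpa, which acts beside it, was at 1.16 ± 0.43 SE in the 16-week comparison and at -1.21 ± 0.41 SE in HFD-STZ-DR against HFD-STZ nerve (limma adjusted p = 0.535 and 0.429). Srebf1, a regulator of fatty acid synthesis, was at -0.32 ± 0.12 SE in HFD against SD nerve at 24 weeks (limma adjusted p = 0.438). Cebpb was at 0.55 ± 0.20 SE in HFD against SD nerve at 16 weeks, and Ppargc1a, a regulator of mitochondrial genes, was at 0.51 ± 0.18 SE in HFD-STZ-DR against HFD-STZ nerve (limma adjusted p = 0.510 and 0.473). Nr1h3, the oxysterol receptor LXR alpha, was at -0.28 ± 0.07 SE in HFD-STZ against SD nerve at 16 weeks and at -0.23 ± 0.08 SE in HFD-STZ-DR against HFD-STZ nerve (limma adjusted p = 0.521 and 0.410). The list's median log2 fold change was 0.26 in HFD against SD nerve at 16 weeks, -0.11 at 24 weeks, 0.05 in HFD-DR against HFD and -0.28 in HFD-STZ-DR against HFD-STZ nerve. The part of the adipocyte content of the samples in these values was not tested.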

How the data were processed

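Processed log2 values of 53 sciatic nerve samples were used. Per the labels and methods, the authors removed reads of low quality and adapters, aligned to mouse build mm10 with HISAT2 and counted with featureCounts (versions not given in the sources used here), and they deposited one log2 value per gene, by a normalization not named. No sample pair had identical values (pairwise correlations 0.916 to 0.994). Groups came from the labels. Each comparison was fitted on its own groups with limma 3.58.1 (R 4.3.3, trend on), keeping genes with a mean of at least 3.32 (log2 of 10) and leaving out 25 genes with a value above 22, and p-values were adjusted by Benjamini and Hochberg across every gene tested, at a threshold of 0.05. Members also had 2-sided exact permutation tests, 140 in all, of which 37 had a p under 0.05. These p-values are unadjusted, and the tests share samples and genes that vary together. They were not run over all genes, so no background share can be given. Scores are mean log2 values of marker lists, and correlations used 100000 shuffles. The scripts were tested on simulated data. Members and lists were chosen with earlier results of these data known. Text names the members, list genes by count, with values for those under an unadjusted p of 0.05 in a disease or reversal comparison (for adipocyte markers, examples), and the 3 genes most like each member, of which 1 is not reported here. Alternatives were other filters, fits, centring, covariates and leaving out samples.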

Additional observations from a re-analysis of the deposited data

Results flagged for a closer look

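Each member was checked in each group for a highest or lowest sample that stood far from the rest, by Dixon's ratio of the gap to the range. Of 80 such checks 7 stood out, where chance gives about 1 in 20. In SD replicate 5 at 24 weeks Lpin1 was at 13.56 (the others at 12.13 to 12.66) and Gpam at 11.90 (the others at 11.03 to 11.33), and this library had the highest muscle score, 17.43. In HFD-STZ-DR replicate 4 Lpin1 was at 13.09 (the others at 12.20 to 12.44), with a muscle score of 16.72. Dgat1 in SD replicate 5 at 16 weeks was at 10.97 (the others at 10.22 to 10.43), with an adipocyte score of 12.12, the highest of that group. In HFD replicate 7 at 16 weeks Gpam was at 10.71 (the others at 11.24 to 11.57) and Lpin3 at 6.64 (the others at 7.63 to 8.26), with scores of 11.89 for adipocyte and 7.48 for muscle. Gpam in HFD-STZ replicate 7 at 24 weeks was at 10.74 (the others at 11.16 to 11.43), with scores of 10.96 and 8.63. The part of these scores in the values was not tested.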

How the results depend on the processing

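Of 4286 recomputed fold changes of members, 4278 kept their side of the threshold and 8 moved past it, and 2 of the 20 relations to marker scores no longer passed. None of the values that passed changed sign, and 229 that did not pass did. In HFD against SD nerve at 24 weeks, 0 members passed, against 1 with all 8 groups in 1 fit (Mogat2 1.46), 1 with the library run added (Mogat2 1.48, limma adjusted p = 0.0221) and 1 with the adipocyte score as a covariate (Dgat2 0.64 rather than 1.11). Leaving out samples gave 0 to 1 members there and 0 to 2 in HFD-STZ-DR against HFD-STZ nerve (Dgat2 -1.93 or -1.89, Mogat1 -1.03). The samples left out in these passes lay against the difference, so it widens by construction and the passes are no support for it. In HFD-STZ against HFD nerve at 24 weeks the adipocyte score gave 1 (Dgat2 -0.63). In the other comparisons no alternative changed the count of members. With the library runs removed, the relation of Agpat3 to the adipocyte score fell to r = -0.274 and that of Gpam to the muscle score to r = 0.198. The cause was not tested. Counts over all genes varied more, as given here over all alternatives and single samples left out. The count of 22 in HFD against SD nerve at 24 weeks ran from 7 to 137, and the count of 15 in HFD-STZ-DR against HFD-STZ nerve from 0 to 167. The count of 12 in HFD nerve with age ran from 0 to 32, that of 6 in HFD-STZ against SD nerve at 24 weeks from 3 to 19, that of 2 in HFD-DR against HFD nerve from 0 to 27, and that of 1 in HFD against SD nerve at 16 weeks from 1 to 16. Counts of 0 reached 122 in SD and 30 in HFD-STZ nerve with age, 20 in HFD-STZ-DR against SD nerve, 7 in HFD-STZ against SD nerve at 16 weeks and 4 in HFD-STZ against HFD nerve at 24 weeks. Leaving out the libraries with a muscle score above 15, and the differences within pairs of members, were chosen after seeing the data. No paired analysis was possible because the labels carry no replicate numbers that pair samples, and the runs of library numbers entered as a covariate instead. The absence of counts limits what can be said of Mogat1 and Mogat2.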

Other observations

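The genes whose values ran most closely with each member over the 53 samples, among 18068 genes, are given as a description. The samples share groups, adipocyte content and libraries. For Dgat2 they were Cd36, a fatty acid transporter (r = 0.964), Igfals (0.953) and Lipe, the hormone-sensitive lipase (0.95). For Agpat2 they were Plin2, a lipid droplet coat protein (0.898), the member Dgat1 (0.892) and Pgd (0.889). Mogat1 ran with Sfxn1 (0.875), Thrsp, a lipogenic factor (0.854), and Adig, a gene of adipocyte differentiation (0.844). Mogat2 ran with Tph2 (0.872), Ubd (0.858) and Tfr2 (0.858).

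Dgat1 ran with Ppp2r5a (0.900) and Gstz1 (0.896). For Gpam the closest were Klhl24 (0.885), Pdpr (0.878) and Svil (0.83), and for Lpin1 Ttc7b (0.895), Vldlr (0.877) and Atl2 (0.845). Agpat3 ran with Mras (0.83), Col23a1 (0.823) and Desi1 (0.814), and Lpin3 with Plcg1 (0.752), Stk38 (0.749) and Galnt15 (0.745). The closest genes to Lpin2, Camk1d (0.667), Gbgt1 (0.650) and Ret (0.638), were the least close of any member.

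Among the members themselves, after subtraction of group means, r was 0.862 for Dgat1 and Agpat2, 0.85 for Dgat1 and Dgat2 and 0.827 for Dgat2 and Agpat2. Gpam ran most closely with Lpin1 (0.657). Mogat2 ran with Dgat2 at 0.657 and with Mogat1 at 0.378. The Mogat2 value minus the Mogat1 value averaged -1.08 ± 0.71 (SD, n = 8) in SD nerve at 24 weeks, 0.68 ± 0.55 (SD, n = 7) in HFD nerve, and -0.64 ± 0.61 (SD, n = 7) in HFD-DR nerve, a pair chosen after its values were seen. In the T2D model at 24 weeks it averaged -0.17 ± 0.59 (SD, n = 8) in HFD-STZ nerve. HFD-STZ-DR nerve was close to that, at -0.32 ± 0.60 (SD, n = 6). At 16 weeks the averages were -0.43 in SD, 0.35 in HFD and -0.34 in HFD-STZ nerve.

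Of the 5 macrophage markers, 5 were above 0 in HFD against SD nerve at 24 weeks and 5 below 0 in HFD-DR against HFD nerve (median log2 fold change 0.30 and -0.41, against 0.008 and -0.002 for all genes), and 0 passed the adjusted test. Cd68, a lysosomal protein of macrophages, was at 0.62 ± 0.28 SE and -0.90 ± 0.28 SE, and Adgre1 was at -0.60 ± 0.23 SE in the second of these (limma adjusted p = 0.536, 0.569 and 0.660). Of the 6 Schwann cell markers, 0 passed the adjusted test in these comparisons, with medians of -0.11 and 0.05. The 6 muscle markers were all above 0 in HFD-DR against HFD nerve, with a median of 2.58, and 0 passed the adjusted test. At an unadjusted p under 0.05, 4 of them were higher, where 2.15% of 18475 genes were, led by Ckm at 3.25 ± 1.27 SE (limma adjusted p = 0.660). In the T2D model the macrophage markers had another pattern. In HFD-STZ against SD nerve at 24 weeks Cd68 was at 0.15 ± 0.21 SE and the other macrophage markers were below 0, from -0.07 to -0.23. All were below 0 in HFD-STZ-DR against HFD-STZ nerve.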
